A study of Mus musculus with 6 samples.

Results

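Insulin leaves the beta cell when secretory granules fuse with the plasma membrane, and 42 genes of that machinery were followed here in islets of pregnant and non-pregnant mice. They were chosen by gene symbol, from knowledge of what their products do and with earlier results of these data known. Of the 42 genes, 41 had a probe set with that single symbol in the platform annotation, Sytl5 not being named there. The whole table named 18193 genes. Where a gene had several probe sets, the one brightest on average over the 6 arrays, as mean log2(signal + 16), stands for it. The samples were pancreatic islets isolated with collagenase from non-pregnant mice (0 dpc, days post coitum; 3 arrays) and from pregnant mice at 12.5 dpc (3 arrays), hybridised to an Affymetrix 3' array, and the study asked which factors make islets proliferate in pregnancy. The sources used here do not give strain, age or the number of animals behind an array. Whether arrays of 1 group stem from different animals is likewise unknown, so a p-value reflects the spread among these arrays, and that spread may be technical.

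In regulated exocytosis, small GTPases of the Rab3 and Rab27 families and their effectors bring a granule to the plasma membrane and hold it there. Priming factors then let SNARE proteins on the granule and on the plasma membrane zip into a tight complex, and calcium-binding proteins such as synaptotagmins couple the entry of calcium to fusion. The ATPase NSF with its SNAP adaptors takes the spent complexes apart. Beta cells use nearly the same parts as neurons, and acinar cells of the exocrine pancreas use several of them to release digestive enzymes.

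Of the 41 genes, 4 were higher and 5 lower in pregnancy past an adjusted p of 0.05 in limma, and the other 32 did not pass. The genes that rose were Rab3d, a granule GTPase, Unc13b, a priming factor of the Munc13 family, Ptprn, a transmembrane protein of the granule, and Syt4, an atypical synaptotagmin. Those that fell were Cplx1, a complexin, Rab3b, another granule GTPase, the atypical synaptotagmins Syt11 and Syt13, and Slc30a8, the zinc transporter of the insulin granule. None of the SNARE genes, the disassembly genes or the Rab effectors in the set passed. The share of members past the threshold was 22.0%, where the background was 11.9% of 12914 genes tested (6.1% higher and 5.79% lower). That background holds also for the counts by role below, and in lists of 3 to 9 genes 0 or 1 call lies near it. Bright genes passed more often: among the 4506 genes with a mean signal of 1000 or more, a limit chosen after the data were seen, 21.7% passed, and among the 25 members that bright 24.0% did. Among genes that bright, the members' share was thus near that of all genes. Rab3b, Syt11 and Cplx1 passed with a mean signal under that limit, and no share was worked out for genes that dim.

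All 41 members passed the filter that kept the brighter 60% of probe sets, against 71.0% of all named genes. Their median log2 difference was -0.09, and it was -0.04 over all genes tested. The changes were small, since 30 members had an absolute log2 difference under 0.25 and 0 reached 1. The groups did not overlap for 21 members (51.2%), with the pregnant arrays above in 8 (19.5%) and below in 13 (31.7%). Over all genes tested the groups did not overlap in 31.8%, with pregnant arrays above in 13.9% and below in 17.9%. These shares are not matched for brightness. A mean signal of 1000 or more was held by 25 of the 41 members and by 4506 of the 12914 genes. No share of genes without overlap was worked out among genes that bright.

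**Figure D1:**
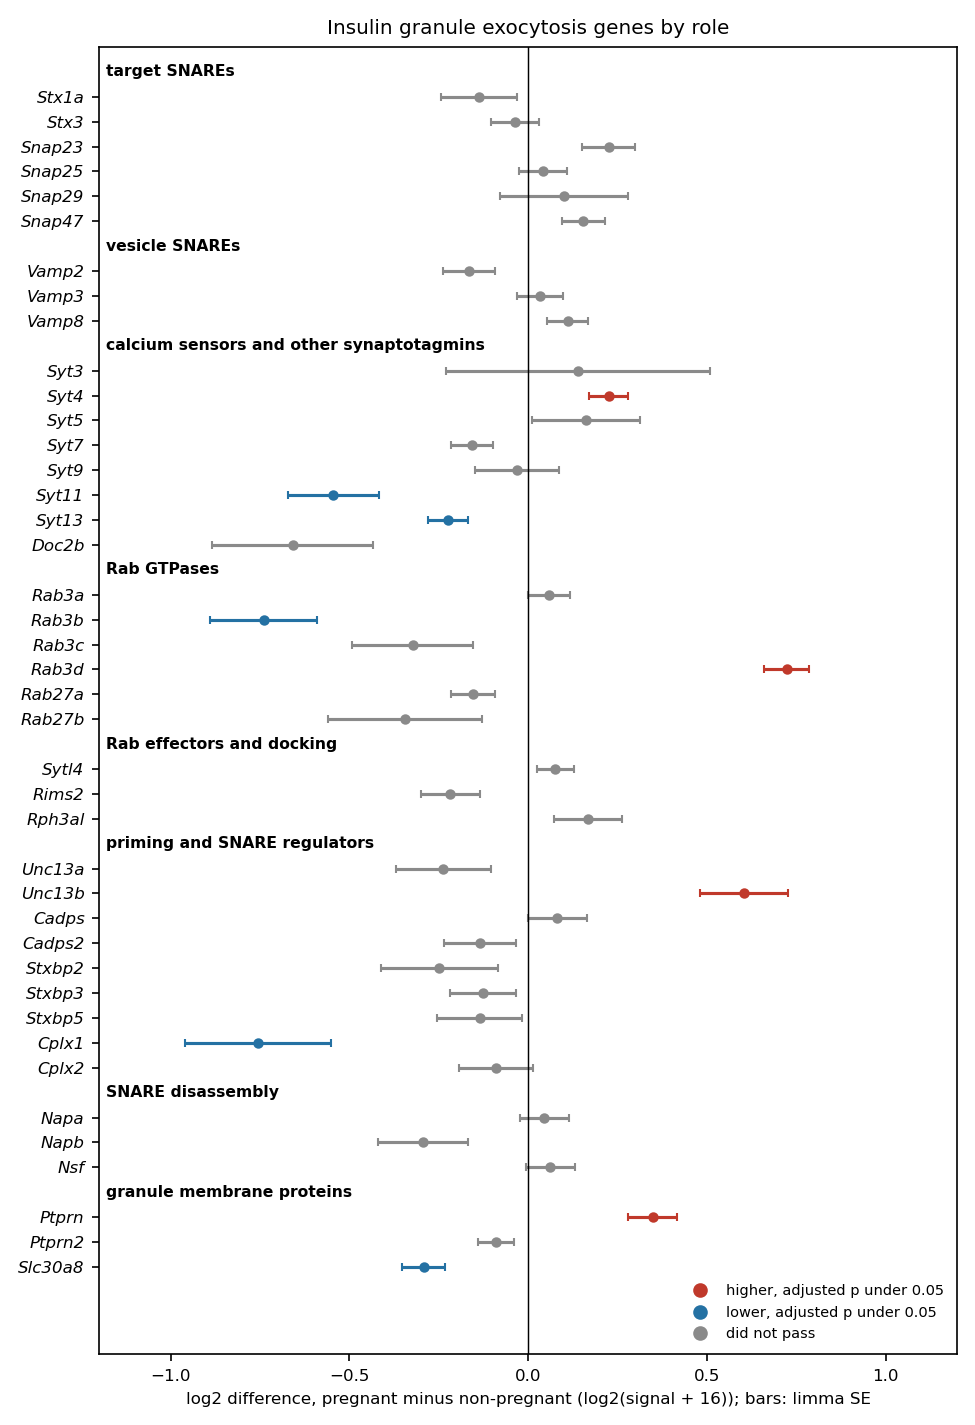
Log2 difference (pregnant minus non-pregnant, on the log2(signal + 16) scale) of the 41 members by role, 1 point per gene with limma's standard error as the bar. The 4 members that rose and the 5 that fell lie between -0.75 and 0.72, and no SNARE gene is coloured.

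The counts depended on the scale and on single arrays. With each array centred on its median 4 members rose and 1 fell, and with quantile normalization 3 rose and 6 fell. The number that fell was 3 without non-pregnant replicate 2, non-pregnant replicate 3, pregnant replicate 2 or pregnant replicate 3, and 2 without pregnant replicate 1. Rab3d, Rab3b, Unc13b and Ptprn passed with any 1 array left out. Without the variance trend in limma, or with the acinar marker median per array entered as covariate, 1 member passed, which was Rab3d both times.

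Markers of some other cells moved with the groups. Over all genes tested 6.1% rose and 5.79% fell. Of 20 acinar markers tested, 17 fell and 1 rose, and their summed signal was 205500 to 385100 without pregnancy and 122200 to 196100 with it. The acinar marker that rose was Bhlha15, from a mean of 1149 to 2602 (log2 difference 1.18 ± 0.09, adjusted p = 8.6e-06 in limma). Of 8 stellate and fibroblast markers 3 fell and 0 rose (summed signal 8092 to 8195 against 4286 to 5973), of 7 Schwann cell and neuron markers 2 fell and 0 rose (3347 to 3724 against 2362 to 3083), and of 5 alpha cell markers 2 fell and 0 rose (101100 to 106000 against 94140 to 98820). None of these markers was at 0. Beta cell markers were bright on every array: of 8, 1 fell and 0 rose, and their summed signal was 150400 to 158500 without pregnancy and 155700 to 157600 with it. Of the remaining lists, delta cell markers had 0 of 3 past the threshold, PP and ghrelin cell markers 1 of 3 that fell, duct markers 1 of 4 that rose and 1 that fell, endothelial markers 1 of 8 that fell and immune markers 1 of 7 that rose. The part of other cells in the members' values was not tested. The acinar covariate was higher on every non-pregnant array than on every pregnant one, so a fit with it cannot fully separate acinar content from pregnancy. In bulk islets, fewer cells of a type and less RNA per cell cannot be told apart.

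**Figure D2:**
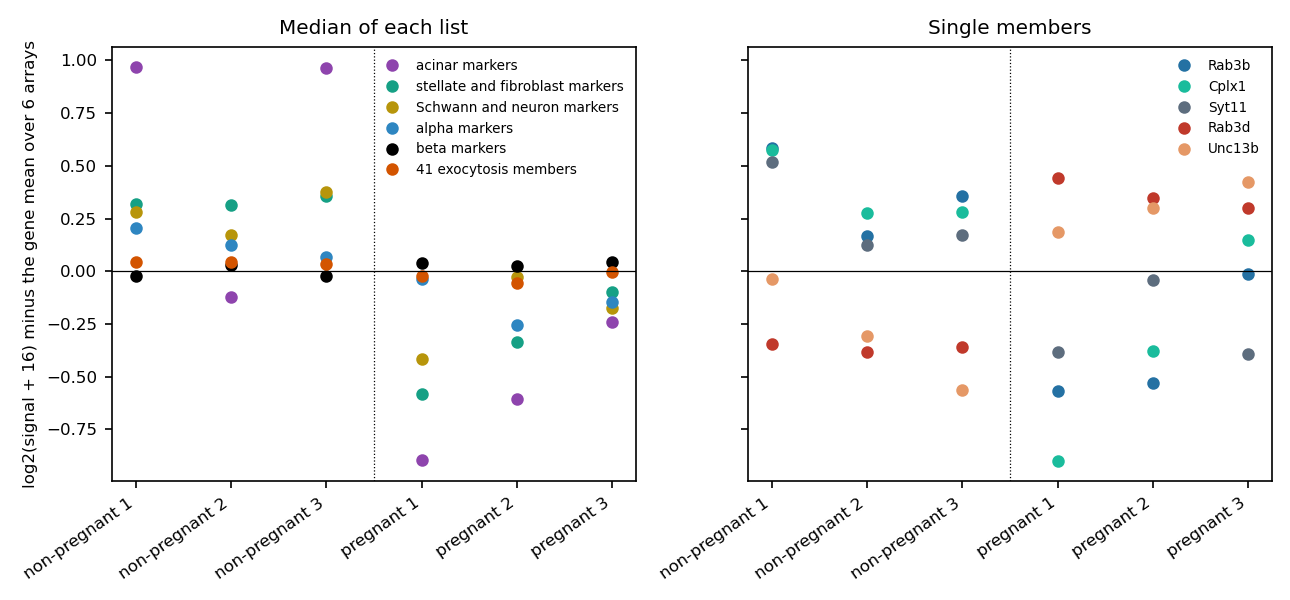
Left, the median over each marker list, and over the 41 members, of log2(signal + 16) minus each gene's mean over the 6 arrays, 1 point per array. Right, the same quantity for 5 single members. The acinar median runs from 0.97 on non-pregnant replicate 1 to -0.89 on pregnant replicate 1, while the median of the members stays between -0.06 and 0.05.

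The Rab GTPases held the widest split. They cycle on and off granule membranes and recruit the effectors that dock granules. Rab3d, the Rab3 form best known from the zymogen granules of exocrine cells, had signals (replicates 1, 2 and 3 in order, as for each gene that follows) of 2984, 2911 and 2958 without pregnancy and of 5157, 4828 and 4672 in pregnancy. The groups were far apart, with little spread in either. The mean signal went from 2951 ± 37.1 (SD, n = 3) to 4885 ± 248 (n = 3), 65.6% higher (0.72 ± 0.06 on the log2 scale, where ± is limma's SE; adjusted p = 2.2e-05). Its 3 bright probe sets all rose, by 0.72, 0.92 and 0.74, while a dim one had -0.10 ± 0.26 (signals of 114.2 and 107.8). With the acinar covariate Rab3d had 0.69 (adjusted p = 0.0099).

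Rab3b went the other way. Its signals were 1433, 1068 and 1221 on the non-pregnant and 636.1, 652.7 and 940.4 on the pregnant arrays, a mean of 1241 ± 183 against 743.1 ± 171 (log2 difference -0.74 ± 0.15, adjusted p = 0.0081). Pregnant replicate 3 lay nearest to the non-pregnant arrays, and without it the log2 difference was -0.92. With the acinar covariate Rab3b had -0.26 (adjusted p = 0.64). Pregnant replicates 1, 2 and 3 had acinar medians of -0.89, -0.61 and -0.24 and stellate and fibroblast medians of -0.58, -0.34 and -0.10. Non-pregnant replicates 1, 2 and 3 had acinar medians of 0.97, -0.12 and 0.96 and stellate and fibroblast medians of 0.32, 0.31 and 0.36. On the pregnant arrays, endothelial (-0.136, -0.098 and -0.012) and immune medians (-0.154, -0.021 and 0.09) rose in the same order. The remaining lists did not. Schwann cell and neuron medians were -0.415, -0.027 and -0.173, alpha cell medians -0.038, -0.253 and -0.145, and PP and ghrelin cell medians -0.281, -0.031 and -0.033. The part of any of these cells in the Rab3b and Cplx1 values was not tested, and the acinar covariate itself moved with the groups. Rab3b was measured by 1 probe set, as were Ptprn and Slc30a8, and Unc13b had 1 that passed the filter.

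To show the regulatory sequence next to the members with the largest rise and fall among those that passed with any 1 array left out, the 250 bases before the annotated start are printed for Rab3d, for Rab3b and for the next largest riser, Unc13b (RefSeq, build GRCm38.p6, 5′ to 3′ on the strand of the gene). Of the 41 members, 30 matched an entry of the promoter table.
Rab3d, GRCm38.p6 chr9:21918184-21918433, minus strand: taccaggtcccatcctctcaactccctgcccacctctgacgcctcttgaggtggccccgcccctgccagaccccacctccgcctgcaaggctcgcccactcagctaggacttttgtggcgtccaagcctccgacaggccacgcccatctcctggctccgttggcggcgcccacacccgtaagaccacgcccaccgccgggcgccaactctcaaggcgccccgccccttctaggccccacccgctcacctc
Unc13b, GRCm38.p6 chr4:43058703-43058952, plus strand: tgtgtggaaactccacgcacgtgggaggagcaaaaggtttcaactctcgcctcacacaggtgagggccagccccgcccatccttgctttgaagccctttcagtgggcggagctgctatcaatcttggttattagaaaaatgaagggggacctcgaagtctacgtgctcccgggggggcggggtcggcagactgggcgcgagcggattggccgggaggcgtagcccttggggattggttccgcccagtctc
Rab3b, GRCm38.p6 chr4:108878820-108879069, plus strand: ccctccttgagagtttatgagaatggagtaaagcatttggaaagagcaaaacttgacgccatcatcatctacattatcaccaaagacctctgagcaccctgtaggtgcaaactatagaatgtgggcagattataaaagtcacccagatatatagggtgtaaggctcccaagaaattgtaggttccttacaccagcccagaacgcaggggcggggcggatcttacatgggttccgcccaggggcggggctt
Both strands were searched for TTCNNNGAA, the core of STAT5 sites, through which prolactin acts on islets, and for TGACGTCA, the full cAMP response element. These motifs read the same on both strands and do not overlap each other. Capitals would mark a match, and neither motif is in these 3 windows. TTCNNNGAA was in the windows of 3 of the 30 matched members (Vamp8, Rph3al and Sytl4) and in 7.02% of all 32851 promoter windows. TGACGTCA was in the window of Stxbp3 and in 1.55% of all windows. None of the 6 matched members that passed the threshold held either motif. A match or its absence in this window describes letters only.

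The remaining Rab genes did not pass. Rab3a, the main Rab3 of synaptic vesicles, had 0.06 ± 0.06 in its brightest probe set (adjusted p = 0.63), with overlapping groups. A second Rab3a probe set rose from 1156 ± 130 to 1511 ± 127 (0.38 ± 0.10, adjusted p = 0.031), so the probe sets of this gene differed. The brightest can match other transcripts, as its suffix _x marks, while the second carries no such mark. Rab3c had -0.32 ± 0.17 (adjusted p = 0.29). Rab27a, which tethers insulin granules to the plasma membrane, had -0.15 ± 0.06 (adjusted p = 0.15) with all 3 pregnant arrays (4428 to 4635) below the non-pregnant (4859 to 5334), and the dim Rab27b had -0.34 ± 0.22 (adjusted p = 0.39).

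Rab effectors and docking factors link the GTPase to the membrane. Among 3 tested, 0 passed. Rims2, a scaffold that joins Rab3, Munc13 and calcium channels, had the smallest p, with signals of 2193, 2144 and 1850 on non-pregnant and 1849, 1776 and 1680 on pregnant arrays (-0.22 ± 0.08, adjusted p = 0.14). The groups only just did not overlap. Sytl4, or granuphilin, which binds Rab27a and docks granules, had 0.08 ± 0.05 (adjusted p = 0.44), and Rph3al, or Noc2, a Rab3 and Rab27 effector needed for secretion, had 0.17 ± 0.09 (adjusted p = 0.33). With probe sets averaged, Sytl4 had -0.091 and Rims2 0.037.

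Of 9 priming factors and SNARE regulators 1 rose and 1 fell, and 7 had a log2 difference below 0. Unc13b opens syntaxin for SNARE assembly. Its signals were 1158, 956.7 and 799.3 on non-pregnant and 1354, 1465 and 1596 on pregnant arrays, and every pregnant array lay above every non-pregnant one. The mean went from 971.2 ± 180 to 1472 ± 121, 51.5% higher (0.60 ± 0.12, adjusted p = 0.0085). Its paralogue Unc13a had -0.24 ± 0.13 (adjusted p = 0.32). With the acinar covariate Unc13b had 0.70 (adjusted p = 0.14), and without the variance trend its adjusted p was 0.10.

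Cplx1 encodes a small complexin that binds the assembled SNARE complex. Its signals were 1034, 837.3 and 841 on non-pregnant and 361.6, 526.7 and 763.9 on pregnant arrays. The pregnant arrays were widely spread, and the highest of them came close to the non-pregnant ones. The mean went from 904 ± 112 to 550.7 ± 202 (-0.75 ± 0.20, adjusted p = 0.038), the largest absolute difference among the members. The call was lost with any 1 array left out other than pregnant replicate 3, where the log2 difference was -1.02 (-0.49 without pregnant replicate 1). It was also lost without the variance trend, with no filter, with robust eBayes, with median centring, with the probe sets averaged (-0.43, adjusted p = 0.079) and with the acinar covariate (-0.22, adjusted p = 0.82). The 2 dimmer Cplx1 probe sets had -0.24 ± 0.28 and -0.29 ± 0.27.

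Cplx2, the other complexin among the members, had -0.09 ± 0.10 (adjusted p = 0.67). Without non-pregnant replicate 1, whose Cplx2 signal of 5720 was below those of 7933 and 7808 on the other non-pregnant arrays, it had -0.24 (adjusted p = 0.021). Cadps and Cadps2, the CAPS proteins that prime dense-core granules, had 0.08 ± 0.08 and -0.14 ± 0.10 (adjusted p = 0.63 and 0.48). The Munc18 genes Stxbp2 and Stxbp3, which chaperone syntaxins, had -0.25 ± 0.16 and -0.13 ± 0.09 (adjusted p = 0.42 and 0.48), and Stxbp5, the SNARE decoy tomosyn, had -0.14 ± 0.12 (adjusted p = 0.56). One dimmer Stxbp2 probe set fell by 0.50 ± 0.13 (adjusted p = 0.038).

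**Figure D3:**
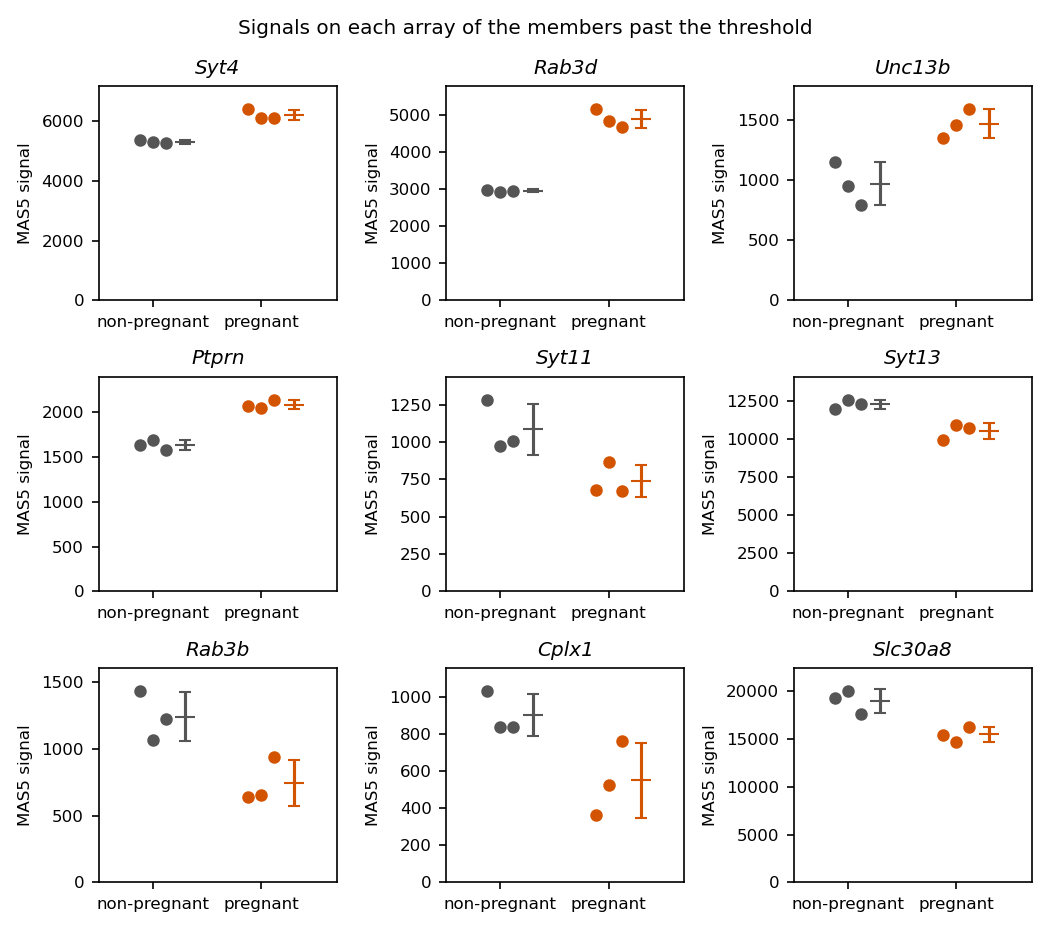
MAS5 signal (linear scale from 0) of the 9 members past the threshold, 1 point per array, with the mean and SD of each group (n = 3) to the right of its points. In all 9 the groups do not overlap, by a wide margin for Rab3d and Ptprn and narrowly for Cplx1.

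The synaptotagmins and Doc2b bind phospholipids and SNAREs through paired C2 domains, and many of them sense calcium. Of 8 tested, 1 rose and 2 fell. Syt4, an atypical form that binds calcium poorly, had signals of 5375, 5284 and 5249 on non-pregnant and 6399, 6099 and 6113 on pregnant arrays (0.23 ± 0.06, adjusted p = 0.023). The rise of 17.0% was small but larger than the spread in either group. The other Syt4 probe set had 0.20 ± 0.07 (adjusted p = 0.077). Syt4 passed with 1 of the 6 arrays left out in turn (non-pregnant replicate 1) and had an adjusted p of up to 0.11 in the others, and of 0.064 with quantile normalization.

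Syt11, the closest relative of Syt4, fell from 1086 ± 170 to 739.1 ± 109 (-0.54 ± 0.13, adjusted p = 0.020). Its signals were 1282, 973 and 1005 on the non-pregnant arrays and 679.4, 864.4 and 673.6 on the pregnant ones. All 5 Syt11 probe sets were lower in value in pregnancy, 3 of them past the threshold (-0.54, -0.46 and -0.49). The brightest can match other transcripts, as its suffix _x marks, while the one with -0.49 ± 0.10 (adjusted p = 0.0077) carries no such mark. Syt11 did not pass with median centring (adjusted p = 0.077), or without non-pregnant replicate 1 (0.064), pregnant replicate 1 (0.087) or pregnant replicate 3 (0.073).

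Syt13, an atypical synaptotagmin found in islet endocrine cells, fell by 0.22 ± 0.05 (adjusted p = 0.023). Its signals were 11974, 12545 and 12271 on non-pregnant and 9936, 10893 and 10679 on pregnant arrays, without overlap. A second probe set had -0.26 ± 0.08 (adjusted p = 0.061). With median centring Syt13 had -0.15 (adjusted p = 0.33), and with no filter its adjusted p was 0.062. It passed when non-pregnant replicate 1 or pregnant replicate 2 was dropped, and not with any of the other 4 arrays left out (adjusted p up to 0.12).

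The calcium sensors proper did not pass. Syt7, a high-affinity sensor of insulin release, had -0.16 ± 0.06 (adjusted p = 0.13), with signals of 6595 to 7372 on non-pregnant and 6122 to 6358 on pregnant arrays, and it fell by 0.21 with quantile normalization (adjusted p = 0.045). Syt9, also a sensor for insulin granules, had -0.03 ± 0.12 (adjusted p = 0.92; 95% interval -0.29 to 0.22). Doc2b, a soluble sensor, had one of the larger differences, -0.66 ± 0.23, but at dim signals (151.2 ± 30.1 against 89.3 ± 11.5) and without passing (adjusted p = 0.095). A still dimmer Doc2b probe set had 0.06 ± 0.34 with overlapping groups (mean signals of 56.8 and 57.1). Syt5 had 0.16 ± 0.15, and Syt3 lay near the filter with signals of 51.0 ± 15.1 and 59.9 ± 29.5.

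SNARE genes, the fusion engine itself, gave no call in 9 tested, which in so short a list is near the 11.9% of all genes that passed. On the plasma membrane side, Stx1a, the syntaxin that pairs with the granule SNARE, had -0.14 ± 0.11 (adjusted p = 0.50; 95% interval -0.37 to 0.10). Snap25, its partner, had signals of 6885, 6927 and 8056 on non-pregnant and 7367, 7645 and 7435 on pregnant arrays. The groups overlapped, and the log2 difference of 0.04 ± 0.07 had a 95% interval of -0.11 to 0.19, which does not exclude small changes. Snap23, the widely expressed relative of Snap25, had the smallest p among the target SNAREs. Its signals were 1490, 1519 and 1535 on non-pregnant and 1857, 1796 and 1674 on pregnant arrays, all higher in pregnancy (0.23 ± 0.07), but the adjusted p was 0.082.

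Snap47 (0.15 ± 0.06, adjusted p = 0.14) had pregnant arrays above the non-pregnant ones as well. Snap29 (0.10 ± 0.18) and Stx3, a syntaxin of granule-to-granule fusion (-0.04 ± 0.07), overlapped in their brightest probe sets. Dimmer Stx3 probe sets had -0.35 ± 0.11, -0.47 ± 0.16 and 0.05 ± 0.15 (adjusted p = 0.059, 0.088 and 0.88). Only the last of these had overlapping groups. On the granule side, Vamp2, the main vesicle SNARE of insulin granules, had signals of 2017, 1901 and 1938 on non-pregnant and 1804, 1770 and 1641 on pregnant arrays. The pregnant arrays were all lower, by little (-0.17 ± 0.07, adjusted p = 0.19). Vamp3 had 0.03 ± 0.06 and Vamp8, which serves compound and acinar granule fusion, 0.11 ± 0.06 (adjusted p = 0.82 and 0.28).

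For disassembly, 0 of 3 passed. Napb, the neural SNAP adaptor, had the smallest p, with signals of 606.3, 619.4 and 608.5 on non-pregnant and 411.7, 519.8 and 570.0 on pregnant arrays (-0.29 ± 0.13, adjusted p = 0.19). The non-pregnant arrays were tight and the pregnant ones spread below them. A dim Napb probe set, shared with similar transcripts by its suffix _s, fell by 0.63 ± 0.17 (adjusted p = 0.041). Napa, the general adaptor, had 0.05 ± 0.07 and the ATPase Nsf 0.06 ± 0.07 (adjusted p = 0.76 and 0.66).

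Among the granule membrane proteins 1 rose, 1 fell and 1 did not pass. Ptprn, a catalytically inactive phosphatase relative and an autoantigen of autoimmune diabetes, had signals of 1635, 1685 and 1583 on non-pregnant and 2074, 2043 and 2137 on pregnant arrays. Both groups were tight, and Ptprn was 27.6% higher in pregnancy (0.35 ± 0.07, adjusted p = 0.0078). Its adjusted p was 0.084 when eBayes had no variance trend, and the acinar covariate gave 0.31 (adjusted p = 0.28). Its paralogue Ptprn2, or phogrin, had -0.09 ± 0.05 (adjusted p = 0.32; 95% interval -0.20 to 0.02).

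Slc30a8, which loads zinc into the granule for insulin crystals, went from signals of 19196, 19977 and 17577 to 15411, 14673 and 16229 (-0.29 ± 0.06, adjusted p = 0.010). All pregnant arrays were lower, by 18.4% in the mean. It was lost with median centring (adjusted p = 0.13) and without pregnant replicate 2 (0.055).

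**Figure D4:**
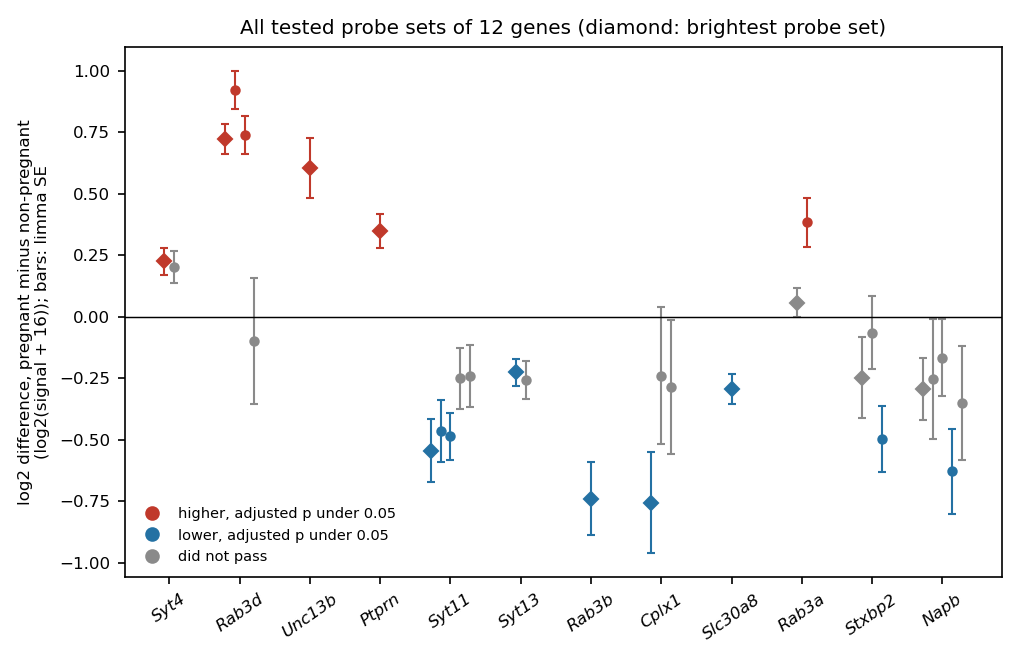
Log2 difference (pregnant minus non-pregnant, log2(signal + 16)) of every tested probe set of 12 genes, with limma's standard error. Diamonds are the brightest probe set of a gene. The 3 bright Rab3d probe sets lie at 0.72 to 0.92, the 5 of Syt11 lie between -0.54 and -0.24, and a dim Rab3d probe set lies at -0.10. Of the tested probe sets 3 of 4 passed for Rab3d, 3 of 5 for Syt11, 1 of 3 for Cplx1, 1 of 2 for Rab3a, 1 of 3 for Stxbp2 and 1 of 5 for Napb.

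Over all 99 tested probe sets of the members, 7 rose and 9 fell (16.2%, against 9.57% of 27022 probe sets tested, 4.79% higher and 4.78% lower). Among the 30 members tested on more than 1 probe set, 0 had both a riser and a faller, and 0 passed on all of them. The 8 members with a known place in acinar zymogen granules (Vamp2, Vamp8, Rab3d, Rab27b, Stxbp2, Snap23, Snap29 and Stx3) had 1 riser, Rab3d, and 0 that fell (12.5% past the threshold, against 11.9% of all genes), with a median log2 difference of 0.03.

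Genes of the same pathway outside the set were read from the same fit. Of 124 such genes in 6 lists, 116 were named on the array and 105 tested, of which 12 rose (11.4%) and 5 fell (4.76%), with a median log2 difference of 0.01. The background for these and the list counts that follow was 6.1% rising and 5.79% falling over all genes. Among 31 other SNAREs and SNARE regulators 7 rose (22.6%) and 0 fell. The 4 with the smallest p were Bet1 (0.54 ± 0.08, adjusted p = 8.3e-04) and Gosr2 (0.46 ± 0.07, adjusted p = 0.0019), SNAREs of traffic from the endoplasmic reticulum to the Golgi, the endosomal syntaxin Stx12 (0.35 ± 0.06, adjusted p = 0.0034) and the endoplasmic reticulum syntaxin Stx18 (0.47 ± 0.10, adjusted p = 0.0081). With the probe sets of each gene averaged, Stx12 had 0.19 (adjusted p = 0.14), and with the acinar covariate Stx18 had 0.21 (adjusted p = 0.57).

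Of 30 other factors of Rab3, Rab27 and the active zone, 2 rose and 2 fell. Rab37, a GTPase of secretory granules, fell from 2739 ± 86.8 to 1741 ± 62.4 (-0.65 ± 0.07, adjusted p = 1.1e-04), and Erc2, an active zone scaffold, fell by 0.61 ± 0.10 (adjusted p = 0.0027). Rab8a, a GTPase of transport to the plasma membrane, rose by 0.44 ± 0.07 and Rims3, a short RIM, by 0.41 ± 0.09 (adjusted p = 0.0028 and 0.013). Rab37 kept its call under all 18 alternatives.

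Of 6 other synaptotagmins and C2 domain sensors tested 0 rose and 1 fell, Syt17 (-0.88 ± 0.16, adjusted p = 0.0053). The exocyst, the complex that tethers vesicles to the plasma membrane, had 0 of 11 past the threshold. At an unadjusted p under 0.05 in limma there was 1 of the 11 (Exoc6b, -0.56 ± 0.18), where 27.2% of all genes tested reached it. In the list of granule biogenesis 3 of 17 rose and 1 fell. Chgb, a granin that condenses in the granule core, rose by 0.56 ± 0.05 (adjusted p = 1.7e-05), Hid1, a Golgi protein needed for granule formation, by 0.58 ± 0.09 (adjusted p = 0.0011) and the BAR domain protein Arfip2 by 0.62 ± 0.10 (adjusted p = 0.0028), while Scg3, another granin, fell by 0.20 ± 0.05 (adjusted p = 0.017). With probe sets averaged Hid1 had an adjusted p of 0.10, and Scg3 did not pass with median centring (-0.13, adjusted p = 0.42).

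**Figure D5:**
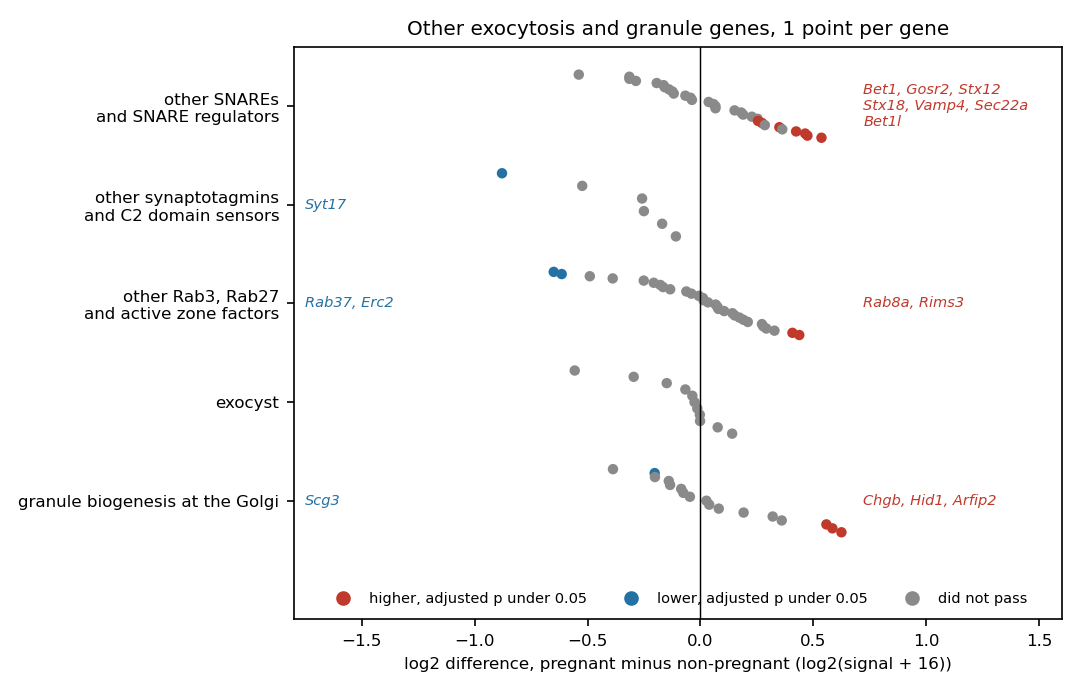
Log2 difference (pregnant minus non-pregnant, log2(signal + 16)) of the tested genes in 5 of the other lists, 1 point per gene, with those past the threshold coloured and named at the sides. The 7 coloured SNAREs are all higher, and none of the 11 exocyst genes is coloured.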

How the data were processed

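The authors deposited linear intensities, 1 for each probe set on each array, made with MAS5 according to the submitters' processing notes. For the MAS5 version and settings, and for detection calls, the sources used here give nothing. The labels' protocols name 100 ng of total RNA as input for the labelled cRNA. The authors' arrays share a 2% trimmed mean of 500.003, so no further normalization was applied. Median signals were 86.1 to 100.3. The number of arrays limits the precision.

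Of 45101 probe sets, 64 controls were left out. Values were taken as log2(signal + 16), which understates changes of dim genes, and the top 60% by mean (27022; signal of about 50.5) were tested. Platform annotation gave 34945 probe sets 1 symbol, 932 several and 9160 none. The probe set that stands for a member had the suffix _x in 6 (Stx1a, Snap47, Vamp3, Syt11, Rab3a and Rab27b). The comparison used lmFit and eBayes with a variance trend (limma 3.58.1, R 4.3.3), 2-sided, with Benjamini-Hochberg adjustment over all probe sets, threshold 0.05, 4 residual degrees of freedom and no covariate. Values after ± are SDs for signals and limma standard errors for log2 differences. Intervals are limma's, at 95%.

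The members and lists were chosen with earlier results of these data known. Signals on every array were given for members past the threshold and for the member with the smallest p of a role with none, and also for Snap25, outside that rule and with its values seen. Other lists name up to 4 genes past the threshold by smallest p. Exoc6b was named after its value was seen. The result of 1 of the 6 other lists is not reported here by itself, though its genes are in the totals. Matched to RefSeq by Entrez identifier, the member symbols were unchanged.

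The fit was tested on simulated data for this comparison (27022 probe sets, 10 draws, 200 changed in each). Of changes of 0.5, 1 and 2 (log2), 25.2%, 61.3% and 90.6% were recovered, and 5.82% of calls were false. The share changed was smaller than the 9.57% of probe sets that passed in the data, and the simulated noise was independent between probe sets. These rates need not hold for the data. Alternatives were pseudocounts of 1 and 64, quantile normalization, median centring, a filter at the top 40% or none, robust eBayes, eBayes with no trend, a replicate block, array weights, each array left out, probe sets averaged and the acinar marker median as a covariate. Figures used matplotlib 3.10.9 in Python 3.11.15.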

Additional observations from a re-analysis of the deposited data

How the results depend on the processing

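The 9 members past the threshold kept their direction under all 18 alternatives, and 4 of them (Rab3d, Rab3b, Unc13b and Ptprn) kept their call with each array left out. Of the members, 1 fell with median centring and 3 with no filter. Without the variance trend 1 rose and 0 fell (2 other exocytosis genes rose; 252 of all genes rose and 102 fell), and with the acinar covariate likewise 1 and 0 (2 other genes rose and 1 fell; 231 and 101 of all genes). The cause was not tested. Of all genes 788 rose and 748 fell, and 872 and 329 with median centring, where the median of all probe sets, lower by 0.08 in pregnancy (a log2 difference of -0.08), is set equal. With 1 array left out, and so fewer samples, 2 to 4 members fell and 3 to 4 rose, 9 to 13 other exocytosis genes rose and 4 to 6 fell, and 514 to 768 of all genes rose and 395 to 562 fell. The number of members in each direction stayed within 1.5 times with pseudocounts of 1 and 64, quantile normalization, the top 40% filter, robust eBayes, array weights and probe sets averaged.

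The replicate number as a block gave 4 members that rose and 5 that fell, all of them the same genes, and 12 and 6 other exocytosis genes. Of all genes it gave 737 and 673. Arrays share only a number: same-numbered arrays had correlations of -0.07 to 0.03 in their deviations from the group means, and 2 of 6 arrays correlated best with their own number.

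Signs changed in 22 of 573 values of members that did not pass, and 2 of the 573 passed (Syt7 with quantile normalization and Cplx2 without non-pregnant replicate 1). With quantile normalization Snap25 had -0.0094, Syt9 0.0055 and Rab3a -0.0067, and with median centring Stx3 had 0.040 and Syt9 0.045. With 1 array left out, Syt3 ranged from -0.157 to 0.362, Syt9 from -0.0975 to 0.0671 and Snap29 from -0.0529 to 0.31. With probe sets averaged, Snap25 had -0.0139, Sytl4 -0.0911, Rims2 0.0368, Stxbp5 0.0278 and Nsf -0.145. With the acinar covariate, Stx1a had 0.0177, Snap29 -0.0319, Syt3 -0.364, Sytl4 -0.0144, Rph3al -0.0608 and Stxbp3 0.0972. Control probe sets for a bacterial transcript read 1.1 to 32.3, which limits dim members such as Syt3.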

Other observations

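Genes of membrane traffic at the endoplasmic reticulum and the Golgi, most of them SNAREs of forward, backward or intra-Golgi transport, were picked out of the longer SNARE list after its values were seen, so no test is given. Of the 13 (Stx5a, Stx17, Stx18, Gosr1, Gosr2, Bet1, Bet1l, Ykt6, Sec22a, Sec22b, Sec22c, Use1 and Bnip1), 5 rose and 0 fell, where 6.1% of all genes tested rose and 5.79% fell. Their median log2 difference was 0.25. Pregnant arrays lay above the non-pregnant in 8 and below in 1, where the shares over all genes were 13.9% and 17.9%. The 5 were Bet1, Gosr2, Stx18, Sec22a (0.42 ± 0.10, adjusted p = 0.019 in limma) and Bet1l (0.25 ± 0.07, adjusted p = 0.035). Bet1l did not pass with any 1 array left out (adjusted p up to 0.12), and Sec22a passed with 2 of the 6 arrays left out in turn. Sec22b (0.23 ± 0.07, adjusted p = 0.065) and Stx5a (0.18 ± 0.06, adjusted p = 0.096) did not pass, with pregnant arrays above the non-pregnant in both.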
